A study of Mus musculus and Homo sapiens
Mus musculus with 14 samples.

Results

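Rod photoreceptors turn light into an electrical signal through a G-protein cascade, and 9 of its genes were followed here through every region of the mouse retina that received a barcode. The genes were taken by symbol from the count tables: Gnat1, Pde6a, Pde6b, Pde6g, Cnga1, Cngb1, Slc24a1, Grk1 and Sag. All 9 were listed among the 24460 genes of the retinal layer table and the 18415 genes of the amacrine table, and all 9 passed the filter on low counts, which left 11324 and 6021 genes to test. The tissue came from wild-type CD1 mice in the third postnatal week. In fixed cryosections, RNA was reverse transcribed in place with a random primer and the cDNA was tagged by light, region by region, with a barcode carrying a unique molecular identifier (UMI). In 4 sections the outer nuclear layer (ONL, rod and cone nuclei), the bipolar cell layer (BCL) and the ganglion cell layer (GCL) each received a barcode, which gave 12 libraries. In 5 other sections the amacrine cells that an antibody against tyrosine hydroxylase (TH) stained (TH+) and amacrine cells that it did not stain (TH-) were barcoded, which gave 10 libraries. A TH+ library pools the few stained cells of its section, and a TH- library pools many more cells. The sections are technical replicates, those of the layers from the same animal, so p-values here measure the spread between sections and not between animals. No group was treated, and every library compared was wild type.

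In a dark-adapted rod, cyclic GMP holds open a cation channel in the outer segment membrane. Light activates the visual pigment, which activates the G protein transducin, which in turn releases the inhibition of a phosphodiesterase that destroys cyclic GMP, so that the channel closes. A kinase and an arrestin then silence the pigment, while an exchanger removes calcium. Gnat1 encodes the rod transducin alpha subunit. Pde6a and Pde6b encode the catalytic subunits of the phosphodiesterase and Pde6g its inhibitory subunit. Cnga1 and Cngb1 encode the channel subunits, Slc24a1 the sodium, calcium and potassium exchanger, Grk1 the pigment kinase and Sag rod arrestin.

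The 9 genes lie on 6 chromosomes and do not form a cluster on the genome. On the GRCm39 assembly Gnat1 spans chr9:107551673-107556911 on the minus strand and has 9 exons in its canonical transcript. Sag spans chr1:87731402-87772880 on the plus strand with 16 exons, and Cngb1 has the most exons of the 9 with 33. Because the genes are expressed together in rods, the 250 bases before each start site were searched on both strands for the core motifs of the photoreceptor transcription factors CRX (TAATCC) and NRL (TGCTGAC) and for TATAAA. None of these motifs overlaps another as matched here. The CRX core was present in 4 of the 9 windows against 6.997% of 21751 protein-coding promoters of the same length, and the NRL core in 2 of 9 against 3.24%. TATAAA was present in 1 of 9 windows, that of Sag, against 11.9% of promoters. The windows of 4 genes that hold a match are shown, 5′ to 3′ along the gene's strand, with the matched bases in capitals.
Gnat1 at chr9:107556912-107557161 on the minus strand holds the NRL core, read on the opposite strand, 77 to 71 bases before the start. Pde6b at chr5:108535993-108536242 on the plus strand holds it 12 to 6 bases before the start. Pde6g at chr11:120344327-120344576 on the minus strand holds the CRX core 16 to 11 bases before the start. Sag at chr1:87731152-87731401 on the plus strand holds the CRX core on the opposite strand 87 to 82 bases before the start and TATAAA, also on the opposite strand, 207 to 202 bases before it.
Gnat1: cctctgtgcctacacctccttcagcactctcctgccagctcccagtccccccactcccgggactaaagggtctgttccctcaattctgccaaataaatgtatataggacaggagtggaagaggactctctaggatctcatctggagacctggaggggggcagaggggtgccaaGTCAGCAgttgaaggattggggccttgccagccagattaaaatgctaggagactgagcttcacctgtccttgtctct
Pde6b: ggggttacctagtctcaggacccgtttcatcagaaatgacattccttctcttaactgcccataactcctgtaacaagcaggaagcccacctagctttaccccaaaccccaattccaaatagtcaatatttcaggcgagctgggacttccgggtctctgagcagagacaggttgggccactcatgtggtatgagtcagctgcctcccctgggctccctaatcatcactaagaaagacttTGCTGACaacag
Pde6g: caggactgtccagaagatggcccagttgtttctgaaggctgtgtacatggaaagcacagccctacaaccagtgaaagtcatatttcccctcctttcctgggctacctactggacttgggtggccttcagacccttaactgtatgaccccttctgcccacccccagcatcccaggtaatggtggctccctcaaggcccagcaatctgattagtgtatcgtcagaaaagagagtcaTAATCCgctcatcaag
Sag: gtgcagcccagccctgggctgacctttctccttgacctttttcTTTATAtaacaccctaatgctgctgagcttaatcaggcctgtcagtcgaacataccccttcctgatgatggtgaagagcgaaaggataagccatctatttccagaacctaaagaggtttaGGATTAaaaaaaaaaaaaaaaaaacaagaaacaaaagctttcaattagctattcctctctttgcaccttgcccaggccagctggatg
A match is a description of the letters and was not tested as a binding site. Cnga1 and Cngb1 also carried the CRX core, the latter at 2 places, and the windows of Pde6a, Grk1 and Slc24a1 carried none of the 3 motifs.

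Layer libraries held 193869 to 801105 UMIs, TH- libraries 134394 to 200344 and TH+ libraries 30317 to 87449, so the TH+ levels rest on the fewest molecules. As summed lists, markers of bipolar and ganglion cells followed the layer labels. Of the 8 bipolar genes, 7 were higher in the BCL than in the ONL by the test described below, and Otx2 was not called. Bipolar genes made up 0.655 to 0.728% of BCL UMIs and at most 0.127% of ONL UMIs, and ganglion cell genes 0.416 to 0.475% of GCL UMIs and at most 0.0468% of those of the other layers. Müller glia genes took 0.676 to 0.751% of BCL UMIs, 0.0606 to 0.114% of ONL UMIs and 0.139 to 0.159% of GCL UMIs. Th itself, the gene of the stained enzyme, stood between 303 and 659.7 CPM (UMIs of a gene per 1000000 UMIs of the library) in TH+ libraries and between 11.6 and 49.9 CPM in TH- libraries.

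All 9 cascade genes were highest in the ONL, lower in the BCL and lowest in the GCL, in each of the 4 sections. Summed over the 9 genes, they took 4.47 ± 0.309% of ONL UMIs (mean ± s.d., n = 4 sections), 1.16 ± 0.258% of BCL UMIs and 0.427 ± 0.107% of GCL UMIs. The BCL sum was 23.0, 25.9, 32.0 and 22.0% of the ONL sum of the same section in sections 1 to 4, and the GCL sum was 8.55, 10.9, 11.5 and 7.16%. The cascade genes were therefore counted in every layer, at a level that fell with each layer. Which cells these UMIs came from was not measured. The BCL and the GCL are layers of other neurons and glia, and in its experiment on mixed cells the study named RNA or cDNA that moves, leftover barcode strands and scattered light as possible sources of background. The barcode hybridization was then modified to lower the first and second of these, and how much background remained in the retinal layers was not measured here. In such pooled libraries, fewer rods in a region, less RNA per rod and such background cannot be told apart.

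Gnat1, the transducin gene, stood at 11480.4, 12695, 13402 and 13074 CPM in the ONL of sections 1 to 4. In the BCL of the same sections its level was 2769.9, 3852, 4985 and 3307 CPM, and in the GCL 1023, 1475, 1577 and 1042 CPM. The 3 layers did not overlap, and section 3 was the highest in each of them.

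Among the phosphodiesterase genes, the catalytic Pde6a reached 3543, 3883, 4148 and 3626 CPM in the ONL, against 882, 988, 1387 and 756 CPM in the BCL and 302, 427, 449 and 278 CPM in the GCL. Its partner Pde6b reached 2653, 3100.0, 3073 and 3256 CPM in the ONL, against 562, 835, 960.4 and 569 CPM in the BCL and 200.0, 304, 343 and 166 CPM in the GCL. The inhibitory Pde6g stood at 4831, 5106, 5148 and 4487 CPM in the ONL, at 1434, 1602, 1895 and 1201 CPM in the BCL and at 480.2, 650.4, 635 and 464 CPM in the GCL. For each of these genes the lowest ONL section lay above the highest BCL section, and the lowest BCL section above the highest GCL section.

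Cnga1, a channel subunit gene, rested on the fewest UMIs of the 9 in every layer. It stood at 845, 971, 877 and 716 CPM in the ONL, at 87.7, 154, 285 and 98.9 CPM in the BCL and at 57.3, 77.9, 75.3 and 54.6 CPM in the GCL. Its BCL values rest on 17 to 56 UMIs and, relative to their mean, spread more than those of any other member, with section 3 above the rest. Cngb1, the modulatory channel subunit, stood at 1525, 1837, 1579.7 and 1486 CPM in the ONL, at 325, 499, 584 and 391 CPM in the BCL and at 116, 183, 207 and 119.5 CPM in the GCL. The exchanger gene Slc24a1 stood at 2962, 3349, 2628 and 2250.0 CPM in the ONL, 562, 662, 894 and 519 CPM in the BCL and 233, 322, 344 and 184 CPM in the GCL. In the ONL Cnga1, Cngb1 and Slc24a1 were all highest in section 2 and lowest in section 4.

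The genes that end the response followed the same order of layers. Grk1, the kinase that marks the active pigment, stood at 2046, 2114, 2265 and 2405 CPM in the ONL, at 356, 446, 549 and 391 CPM in the BCL and at 139, 165, 204 and 101 CPM in the GCL. Sag, the arrestin that then binds it, stood at 10339.5, 12111, 14172 and 14718 CPM in the ONL, at 2290.2, 2658, 3582 and 2912 CPM in the BCL and at 888, 1337, 1588 and 886 CPM in the GCL. Both were highest in section 4 in the ONL, as was Pde6b, while Slc24a1, Cnga1, Cngb1 and Pde6g were lowest there. In the BCL, section 3 held the highest value of all 9 genes.

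**Figure D1:**
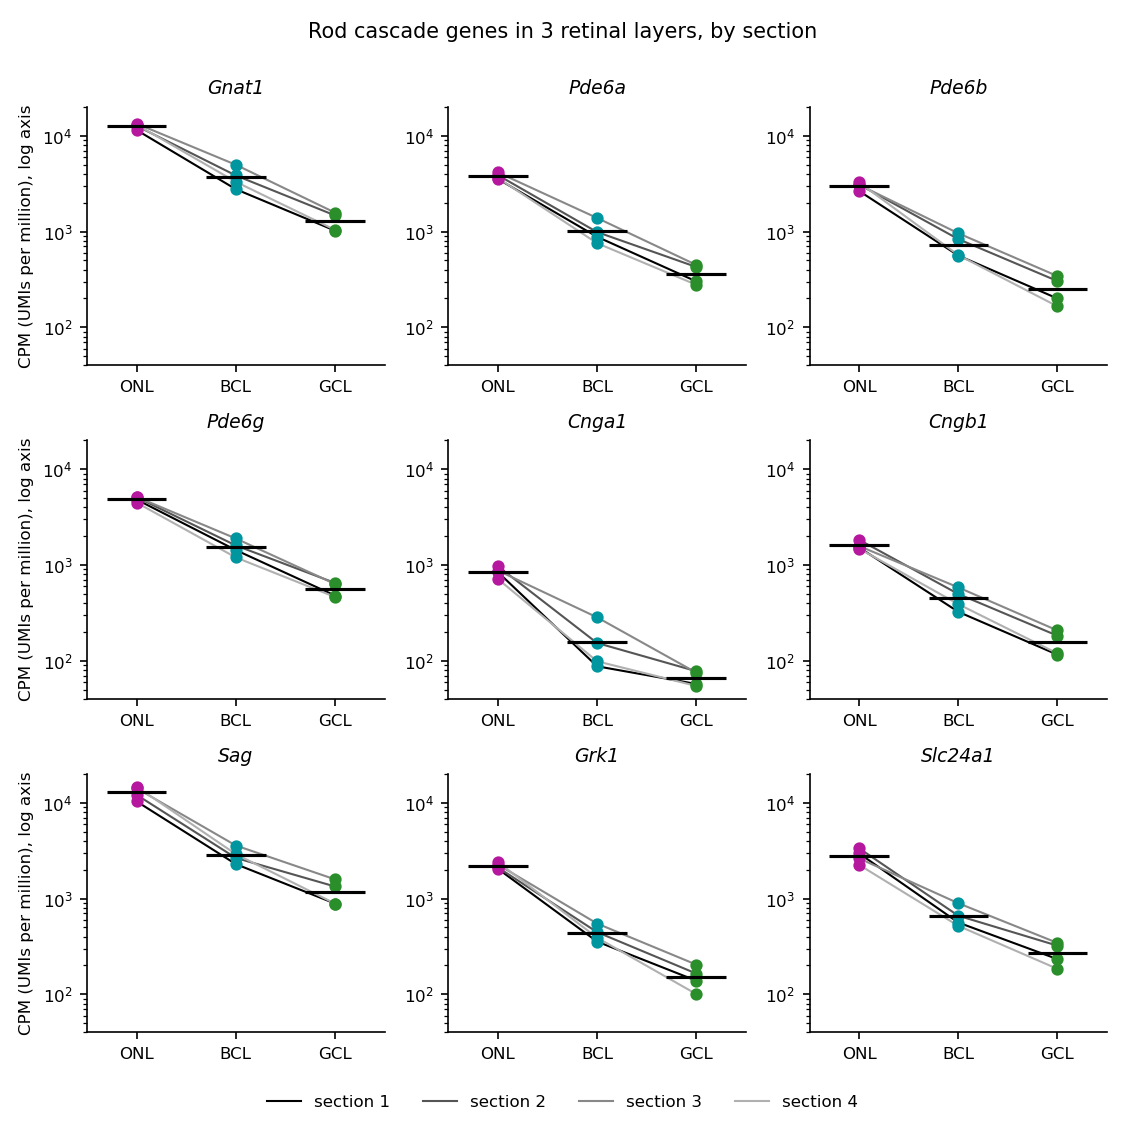
Level of each of the 9 genes by layer, in CPM (log axis). Each point is a library, grey lines join the libraries of a section and black bars are group means (n = 4 sections). Every gene falls from ONL to BCL to GCL without overlap, and on this log axis Cnga1 spreads most in the BCL, from 87.7 to 285 CPM.

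The difference between layers was tested with edgeR's quasi-likelihood F-test over all genes, with p adjusted by the Benjamini-Hochberg method. Against the BCL, all 9 genes were higher in the ONL at an adjusted p under 0.05, beside 18.5% of all genes tested (18.2% were higher in the BCL). The log2 fold change ran from 2.002 ± 0.125 (SE) for Pde6g, a 4.005-fold difference, to 2.79 ± 0.176 for Cnga1, a 6.91-fold difference. Grk1 (2.66 ± 0.137) and Sag (2.48 ± 0.143), the genes that silence the pigment, lay above Gnat1 (2.09 ± 0.136). All the other genes except Pde6g also lay above Gnat1. The median over the 9 genes was 2.37, beside 0.0872 over all genes tested, and the largest adjusted p of the 9 was 2.46e-18 (Cngb1). In 11.2% of all genes tested, as in all 9 cascade genes, every ONL library lay above every BCL library.

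Against the GCL the difference was larger. All 9 genes were higher in the ONL, beside 29.3% of all genes tested (32.2% were higher in the GCL). The log2 fold change ran from 3.29 ± 0.129 for Pde6g, a 9.81-fold difference, to 4.01 ± 0.137 for Grk1, a 16.1-fold difference. Pde6g thus had the lowest and Cnga1 and Grk1 the highest fold changes of the 9 genes in both comparisons, which share the ONL libraries. The median was 3.54, beside 0.00411 over all genes. Like all 9 cascade genes, 22.0% of all genes tested were without overlap and higher in the ONL. Markers of the pigment epithelium, the cell layer behind the photoreceptors, moved in the same direction at a low level. They took 0.0145 to 0.0182% of ONL UMIs, 0.00661 to 0.0089% of BCL UMIs and 0.00123 to 0.00461% of GCL UMIs. Of 5 such genes, 1 had 0 UMIs throughout the BCL and 1 throughout the GCL. The filter left 3 to test, and all 3 were higher in the ONL than in the BCL, with a median log2 fold change of 1.41, and than in the GCL, with a median of 2.65. Mitochondrial transcripts ran the other way, at 4.26 to 5.50% of ONL UMIs, 5.71 to 6.79% of BCL UMIs and 8.59 to 9.36% of GCL UMIs. With the mitochondrial genes left out of the fit, the median log2 fold change of the 9 was 2.31 against the BCL and 3.45 against the GCL. The part of the pigment epithelium in the differences was not tested.

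The BCL also held more of each cascade gene than the GCL. All 9 genes were higher in the BCL by the same test, beside 16.1% of all genes tested (20.4% were higher in the GCL). The log2 fold change ran from 1.07 ± 0.235 for Cnga1 to 1.38 ± 0.136 for Gnat1, or 2.09-fold to 2.60-fold, with a median of 1.30 beside -0.0183 over all genes. The adjusted p was 1.98e-04 for Cnga1 and lower for the others. Without section 3, the section with the highest BCL level of Cnga1, the log2 fold change of Cnga1 was 0.66 ± 0.261 with an adjusted p of 0.0447 by edgeR. All 9 genes were without overlap between these layers and higher in the BCL, as were 18.7% of all genes tested. Of 6 photoreceptor transcription factor genes, 5 (Nrl, Nr2e3, Crx, Esrrb and Samd7) were also higher in the BCL than in the GCL by that test. Mef2c was not called. The largest of these changes was that of Crx (1.72 ± 0.139), and which cells its UMIs came from was not measured. The summed list of the 6 genes took 0.168 to 0.257% of BCL UMIs and 0.0522 to 0.0825% of GCL UMIs. Their part in the result was not tested.

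**Figure D2:**
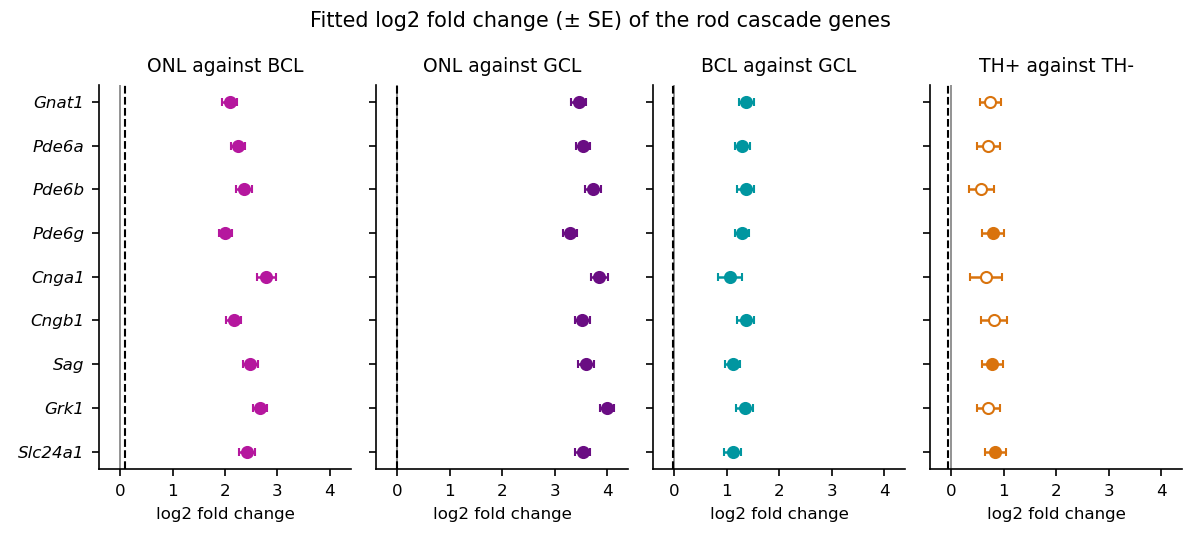
Fitted log2 fold change (x axis) of the 9 genes (y axis) in the 3 layer comparisons and in TH+ against TH- libraries. Bars are ± SE, filled points have an adjusted p under 0.05 (edgeR), open points do not, and the dashed line is the median over all genes tested. The 9 genes lie between 2.002 and 2.79 for ONL against BCL, between 3.29 and 4.01 for ONL against GCL, between 1.07 and 1.38 for BCL against GCL and between 0.57 and 0.84 for TH+ against TH-.

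Genes that work with the 9 in the same cascade changed in the same direction. Of 13 further rod cascade genes, 12 were tested, all 12 were higher in the ONL than in the BCL and than in the GCL, and 11 were higher in the BCL than in the GCL, the exception being Pde6d. Their median log2 fold change for ONL against BCL was 2.13. The largest of these were those of Guca1b (2.78 ± 0.191), a calcium sensor of the cyclase, Pdc (2.40 ± 0.156), phosducin, which binds transducin, and Gucy2f (2.39 ± 0.148), a guanylate cyclase. The smallest were those of Pde6d (1.31 ± 0.191), a prenyl-binding chaperone, Gnb5 (1.38 ± 0.135), the G beta subunit that partners Rgs9, and Gngt1 (1.86 ± 0.167), the transducin gamma subunit. Guca1a did not pass the filter on low counts.

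The cone forms of the cascade, another 9 genes, took 0.0516 to 0.0894% of ONL UMIs together. Of these, 7 were higher in the ONL than in the BCL and 2 were not called. Cnga3, the cone channel subunit, was among those called but stood at only 0 to 4.94 CPM in the BCL libraries, against 19.3 to 55.3 CPM in the ONL, so no fold change is given for it. Among the other called genes Arr3, cone arrestin, changed by 3.46 ± 0.301 on the log2 scale, and Pde6h, the cone inhibitory subunit, by 2.91 ± 0.390 with BCL libraries at 0 to 25.4 CPM. Cngb3, the other cone channel subunit, had the smallest called change (1.45 ± 0.345). The uncalled genes were Gnb3 (-0.28 ± 0.154, adjusted p = 0.152 by edgeR), the cone G beta subunit that ON bipolar cells also use, and Slc24a2 (-0.37 ± 0.187, adjusted p = 0.123 by edgeR), an exchanger. Against the GCL, Slc24a2 was the only cone list gene that was lower in the ONL (-2.13 ± 0.132), and the other 8 were higher.

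Within the cascade the subunits of a complex were set against each other in each library, which needs no scaling. Pde6a had 1.34, 1.25, 1.35 and 1.11 UMIs per Pde6b UMI in the ONL of sections 1 to 4, against 1.57, 1.18, 1.44 and 1.33 in the BCL and 1.51, 1.40, 1.31 and 1.68 in the GCL. The layers overlapped, and the ONL differed from the BCL by -0.12 on the log2 scale (exact two-sided permutation test, p = 0.286) and from the GCL by -0.22 (exact permutation p = 0.0857). Without section 4 these differences were -0.08 and -0.10. Pde6g had 0.780, 0.731, 0.713 and 0.652 UMIs per UMI of the 2 catalytic subunits together in the ONL, against 0.993, 0.879, 0.807 and 0.907 in the BCL and 0.957, 0.889, 0.802 and 1.05 in the GCL. This ratio was lower in the ONL than in the BCL of the same section in all 4 sections, and the groups did not overlap. The log2 difference was -0.32 against the BCL and -0.36 against the GCL (exact two-sided permutation test, p = 0.0286 for each, the smallest that 4 against 4 allows). After adjustment over the 6 ratio tests both were 0.0857, so neither passed.

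Cnga1 had 0.554, 0.529, 0.555 and 0.482 UMIs per Cngb1 UMI in the ONL. In the BCL the ratio was 0.270, 0.308, 0.487 and 0.253, and in the GCL 0.495, 0.426, 0.363 and 0.457. The ONL was the highest layer in all 4 sections in both comparisons, but the ranges overlapped by the highest BCL and GCL sections. The log2 difference was 0.71 against the BCL and 0.28 against the GCL (exact two-sided permutation test, p = 0.0571 and 0.0857 after adjustment for each). Without section 3 they were 0.89 and 0.17. Paired by section, no ratio test could pass, since 4 pairs allow no exact permutation p under 0.125.

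**Figure D3:**
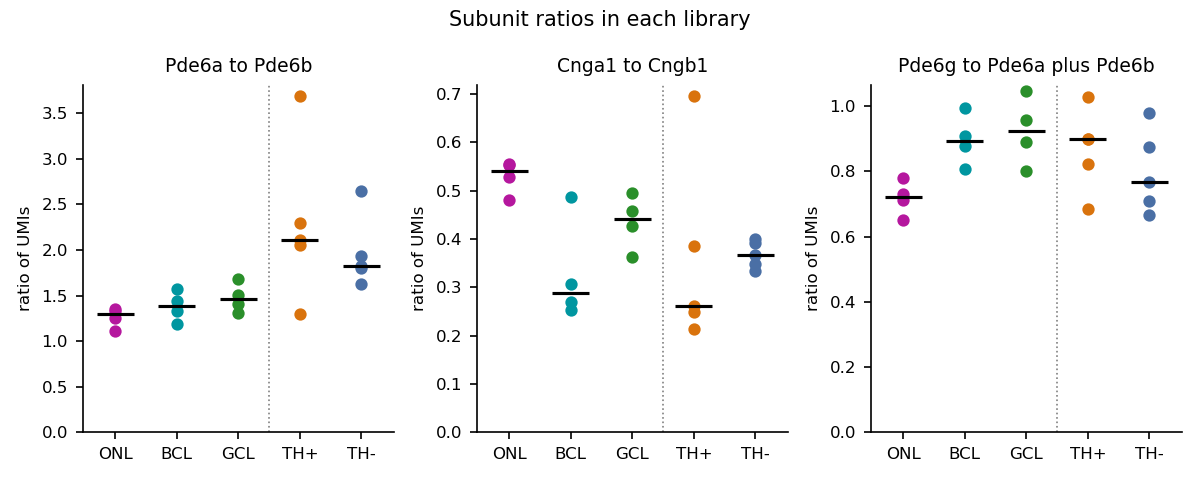
Ratio of UMIs between subunit genes (y axis, from 0) in each library of the 5 groups. Points are sections, black bars are medians, and the dotted line parts the layer experiment from the amacrine experiment. The ratio of Pde6g to Pde6a plus Pde6b lies between 0.652 and 0.780 in the ONL and between 0.807 and 0.993 in the BCL.

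Levels of different genes were compared per length, as RPKM (CPM divided by the gene length in kilobases, with the gene length that the authors deposited). In the ONL, Gnat1 was first at 4181 ± 277 RPKM (s.d., n = 4), followed by Pde6g at 2112 ± 132 and Sag at 1442 ± 225 RPKM. Pde6a (811 ± 58.3), Pde6b (601 ± 51.3) and Slc24a1 (537 ± 90.0) formed a middle group. Grk1 (251 ± 18.2), Cngb1 (172 ± 16.9) and Cnga1 (135 ± 16.7) were lowest. The only neighbours in this order whose section values overlapped were Pde6b and Slc24a1. The order depends on the length used, because the deposited lengths join the exons of all transcripts. Over the coding length Pde6g was first at 18747 RPKM, ahead of Gnat1 at 12059.9, while over the canonical transcript Sag was first at 7467 RPKM. The random primer ends in G bases, and its preference among genes was not tested.

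Across the 12 layer libraries each cascade gene followed the other 8 closely. Pearson's correlation of log2 CPM with the mean profile of the others ran from 0.982 for Cnga1 to 0.998 for Pde6a, a description of points that share sections and layers. Of the genes in no list, those with the most similar profiles included Tulp1 (r = 0.998), Rom1 (0.998), an outer segment disc protein, Ankrd33 (0.997) and Ptp4a3 (0.997). Many genes shared the profile, since 376 of 11259 genes exceeded 0.95.

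In the amacrine libraries the 9 genes were again counted throughout, and their summed level was higher in the TH+ library of every section. Their sum took 1.83 ± 0.546% of TH+ UMIs (n = 5 sections) and 1.06 ± 0.357% of TH- UMIs. In sections 1 to 5 the TH+ sum was 1.30, 1.91, 1.76, 1.68 and 2.23 times the TH- sum, higher in 5 of 5 sections. Section 2 had the lowest sum in both groups, with 0.914% and 0.477%. In the study's supplement, replicate 2 had the largest intronic share of gene-mapped reads of the 5 amacrine replicates. The part of this in the low sum was not tested.

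Gnat1 stood at 9229, 4505, 10610.0, 10682 and 11578 CPM in the TH+ libraries and at 6634, 2303, 6533, 6978 and 4863 CPM in the TH- libraries. Apart from the TH+ library of section 2, every TH+ value lay above every TH- value, but with that library the groups overlapped, as they did for all 9 genes. Among all genes tested, 0.93% were without overlap and higher in TH+ libraries.

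Slc24a1 stood at 837, 549, 799.9, 1038 and 759 CPM in TH+ and at 526, 255, 513, 559 and 317 CPM in TH- libraries. Sag stood at 2858, 1567, 3576, 4325 and 4222 CPM in TH+ and at 2544, 879, 1756, 2326 and 1875 CPM in TH- libraries. For Pde6g the levels were 1633, 812, 2164, 2379 and 1715 CPM in TH+ and 1216, 405, 1138, 1123 and 973 CPM in TH- libraries. Within each section all of these were higher in the TH+ library, in 5 of 5 sections.

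The same held for Pde6a, at 1429, 629, 1788, 1557 and 1418 CPM in TH+ and 1019, 376, 945, 1043 and 641 CPM in TH- libraries. It held for Cngb1 too, at 469.6, 263, 659, 778 and 429 CPM in TH+ and 335, 116, 365, 314 and 296 CPM in TH- libraries. Pde6b, Cnga1 and Grk1 were higher in 4 of 5 sections. Pde6b stood at 388, 274, 847, 757 and 1088 CPM in TH+ and at 565, 231, 357, 539 and 352 CPM in TH- libraries, with section 1 as the exception. Cnga1 rests on 5 to 16 UMIs in each TH+ library, at 123, 183, 141, 195 and 165 CPM, against 131, 46.3, 134, 109.8 and 98.7 CPM in TH- libraries. Grk1 stood at 368, 354, 565, 497 and 264 CPM in TH+ and at 316, 162, 268, 245 and 268 CPM in TH- libraries. Cnga1 was lower in the TH+ library of section 1 and Grk1 in that of section 5.

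**Figure D4:**
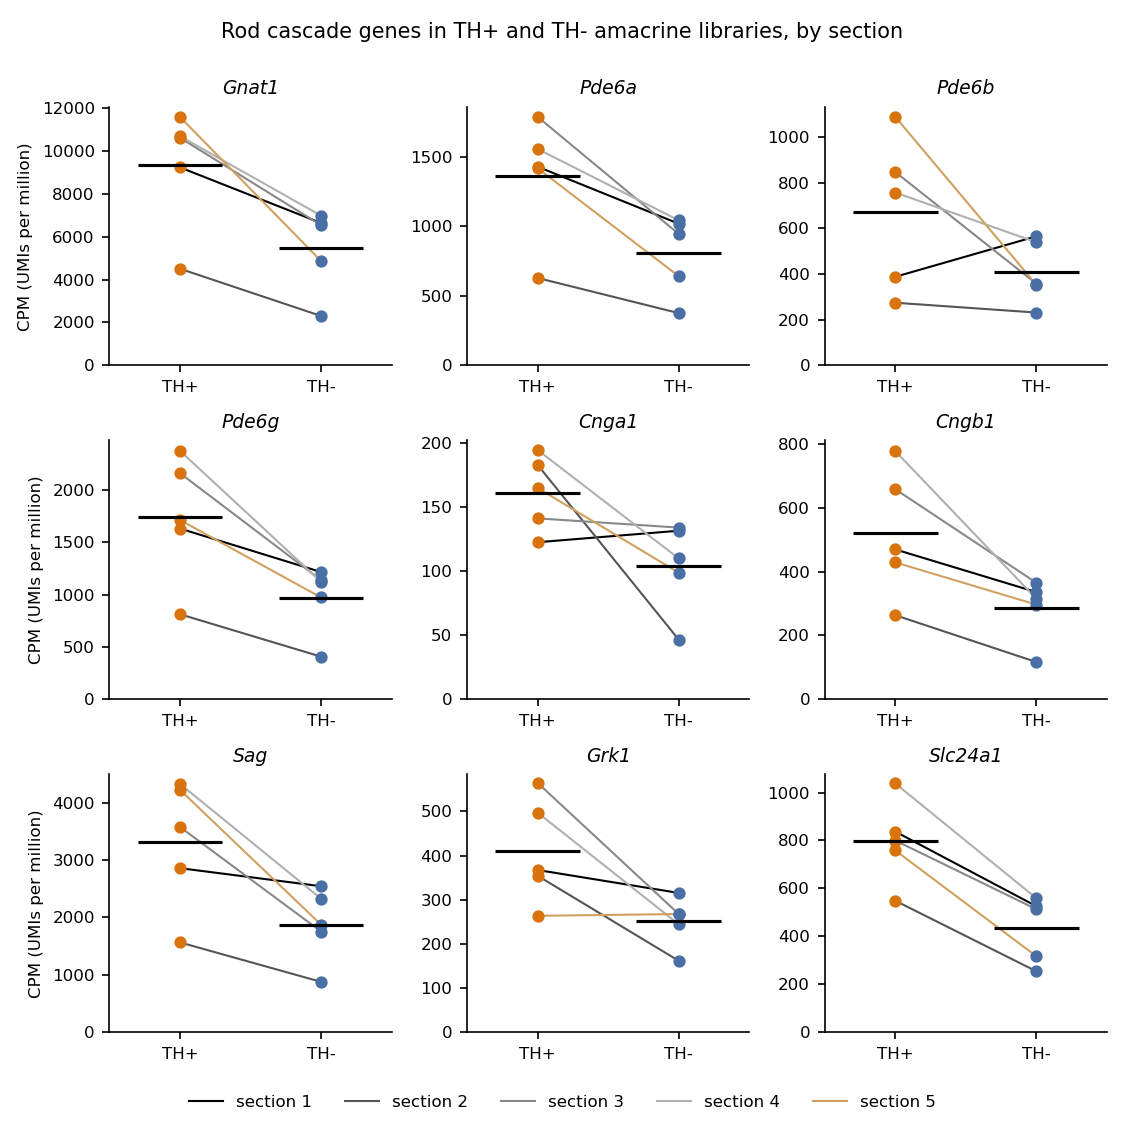
Level of each of the 9 genes in CPM (y axis, from 0, scaled to each gene) in TH+ and TH- libraries. Points are libraries, lines join the libraries of a section and black bars are group means (n = 5 sections). Section 2 is the lowest TH- library for every gene, and the lines fall from TH+ to TH- except for Pde6b and Cnga1 in section 1 and Grk1 in section 5.

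By edgeR's test over all genes, 3 of the 9 were higher in TH+ libraries at an adjusted p under 0.05, where 0.747% of all genes tested were higher in TH+ and 0.083% higher in TH-. These were Slc24a1 (log2 fold change 0.84 ± 0.201, adjusted p = 0.0195), Sag (0.78 ± 0.201, adjusted p = 0.0411) and Pde6g (0.80 ± 0.210, adjusted p = 0.0439). Gnat1 (0.75 ± 0.201) lay just past the threshold at an adjusted p of 0.0547, and the smallest change was that of Pde6b (0.57 ± 0.240, adjusted p = 0.407). The median over the 9 genes was 0.75 beside -0.05 over all genes tested, and all 9 had an unadjusted p under 0.05, beside 3.85% of all genes tested that were higher in TH+ libraries at that level. With the section as a block, which pairs the libraries of a section, 8 of the 9 were called, where 1.59% of all genes were higher in TH+ libraries, and Cnga1 was not (0.73 ± 0.303, adjusted p = 0.275). DESeq2 called 0 of the 9, beside 0.565% of all genes higher in TH+ libraries, and had 8 at an unadjusted p under 0.05, beside 3.49% of all genes. Without section 1 the edgeR test called 1 of the 9, beside 0.517% of all genes tested, and without section 2 it called 6, beside 0.899%. Without section 3, 4 or 5 it called 0, beside 0.433, 0.52 and 0.503% of all genes. In these fits 8, 8 and 7 of the 9 had an unadjusted p under 0.05, beside 3.17, 2.92 and 3.47% of all genes.

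Of the other rod cascade genes, 12 were tested in the amacrine libraries and 0 were called by edgeR, with 7 at an unadjusted p under 0.05 and a median log2 fold change of 0.61. Among the photoreceptor transcription factor genes, Crx was called (0.87 ± 0.192, adjusted p = 0.00691 by edgeR), a gene named here after its value was seen, and the other 5 were not. The summed list of these factors took 0.120 to 0.275% of TH+ UMIs and 0.0793 to 0.133% of TH- UMIs. Müller glia genes took 0.287 to 0.419% of TH+ and 0.396 to 0.642% of TH- UMIs, and amacrine genes 0.219 to 0.363% and 0.283 to 0.481%. Bipolar genes took 0.066 to 0.156% of TH+ and 0.0796 to 0.263% of TH- UMIs. Mitochondrial transcripts, like the cascade genes, took a larger share in the TH+ library of all 5 sections, at 9.32, 7.71, 7.30, 8.83 and 6.68% against 8.12, 7.13, 6.25, 6.90 and 6.23% in sections 1 to 5. With the mitochondrial genes left out of the fit, the median of the 9 was 0.75. The part of rod cells or of depth in the difference between TH+ and TH- libraries was not tested.

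The share of Gnat1 and Sag among the cascade UMIs stood apart between the layer and the amacrine experiments. Gnat1 supplied 28.3 ± 0.182% of the UMIs of the 9 genes in ONL libraries, 32.1 ± 1.48% in BCL libraries and 30.1 ± 1.08% in GCL libraries (n = 4 sections each). In the amacrine experiment it supplied 50.9 ± 2.41% in TH+ and 51.1 ± 2.44% in TH- libraries (n = 5 sections each). Sag supplied 28.6 ± 2.88% in ONL, 25.0 ± 2.63% in BCL and 27.3 ± 1.45% in GCL libraries. In the amacrine experiment its share was 17.9 ± 1.47% in TH+ and 17.8 ± 1.92% in TH- libraries. The shares of a library make up a fixed whole, so a larger Gnat1 share by itself lowers the others. A difference in Sag apart from that was not tested. For Pde6b and Grk1 the experiments overlapped. Pde6b supplied 2.24 to 5.03% in TH+ libraries, 5.03 to 6.32% in GCL and 6.50 to 7.07% in ONL libraries. Grk1 supplied 1.22 to 3.88% in TH+ libraries, 3.06 to 4.04% in GCL and 4.68 to 5.23% in ONL libraries. Pde6a supplied 8.51 ± 0.432% in the ONL and 7.43 ± 0.859% in TH+ libraries. The tables come from separate experiments, so these values stand side by side without a test. In the study the layers were sequenced on a NovaSeq and the amacrine libraries on a MiSeq. The amacrine sections were also stained with an antibody before barcoding and went through more of the stringent washes. The part of these differences in the shares was not tested. In the GENCODE vM39 annotation the spans of 5 of the 9 genes, introns included, are overlapped by 8 noncoding genes or pseudogenes. On the opposite strand these cover 2481 bases of Gnat1 (Gm57061), 693 of Sag (Gm19582), 5690 of Slc24a1 (Gm39361) and 879 to 981 bases of Pde6a (3 genes), and on the same strand 627 and 1171 bases of Cnga1. The study's methods give default counter settings, which do not use strand, so reads from such a pair cannot be told apart by strand. The authors counted with the older vM27 annotation. By gene ID, 3 of the 8 (Rps2-ps10, Gm5297 and Gm19582) are in the gene list of the deposited tables that name every annotated gene, and Gm57061 is not. The effect on the counts was not tested.

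**Figure D5:**
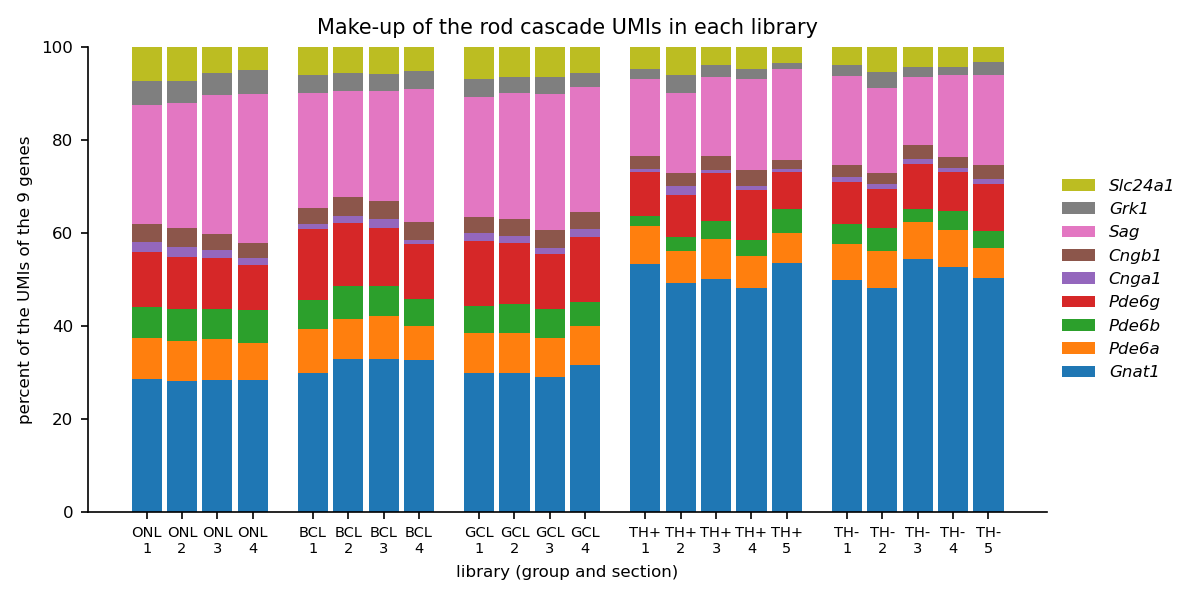
Share of each of the 9 genes in the summed UMIs of the 9 (y axis, percent) in each of the 22 libraries, by group and section. Gnat1, at the base of each bar, takes 28.1 to 33.0% in the layer libraries and 48.1 to 54.4% in the amacrine libraries.

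In cultured fibroblasts the cascade was not detected. The mouse embryonic fibroblast line 3T3 was grown mixed with human HEK cells and barcoded in 3 wells, with 135565, 206187 and 199128 UMIs. All 9 genes had 0 UMIs in these libraries. With a floor of 3 UMIs, a count of 0 allows a level of up to 22.1, 14.5 and 15.1 CPM per gene. Cnga1, the gene with the fewest UMIs, exceeded these limits in every retinal library, down to 46.3 CPM in the TH- library of section 2. The wells held no rods, so these limits measure neither rod RNA that moved within a retinal section nor other background there.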

How the data were processed

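The data are UMI counts per gene. Per the labels and the study's methods, the authors extracted UMIs and barcodes with UMI-tools 1.1.1 and aligned the cDNA with STAR 2.7.9a to GRCm39 (GENCODE vM27). Multimapping reads were dropped, exonic reads were counted with featureCounts at its default settings, which do not use strand, and reads sharing gene and UMI were merged and split by perfectly matching barcode. They discarded 2 mouse ribosomal RNA genes. The deposited counts are whole numbers without normalization, and a shared exon or a near-identical copy elsewhere would lower a count. The submitters' processing notes also name SAMtools 1.9. The pooled library of the layers was not used.

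Levels were computed as CPM of the column total. Counts were tested with edgeR 4.0.16 (R 4.3.3), TMM scaling, a low-count filter (edgeR's filterByExpr at 3 UMIs, total 10), in 1 fit over the 12 layer libraries and 1 over the 10 amacrine libraries, at an adjusted p of 0.05. The biological coefficient of variation was 9.17% and 16.0%. The SE was taken from the F statistic, as the log2 fold change over its root. Alternatives were DESeq2 1.42.0, which the authors used, RLE factors, library totals alone, other filters, mitochondrial genes left out, the section as a block and each section left out in turn. Ratios had 0.5 UMI added to each side on the log2 scale and exact permutation tests (scipy 1.17.1). The scripts were tested on simulated data. The floors cover counting error only, while the SE also takes in spread between libraries.

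Libraries of a section share that section, which pairs them by design. After group means were removed, libraries of the same section correlated at 0.0116 to 0.0493 over the 12 layer pairs and at 0.0287 to 0.257 over the 5 amacrine pairs. No pair of libraries held identical counts. Gene spans, coding and canonical transcript lengths and promoters come from GENCODE vM39 on the same assembly. The gene length of the main RPKM values is the one that the authors deposited. The members and gene lists were chosen with earlier results of these data known. The text names all 9 members, from the other rod cascade and the cone list the 3 genes with the largest and the 3 with the smallest change for ONL against BCL, and the 5 genes in no list most like the members. Of the genes that this rule takes, 1 is not reported here.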

Additional observations from a re-analysis of the deposited data

Results flagged for a closer look

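Of 65 groups of values examined for a sample far from the rest, 1 was picked out, and chance picks out about 1 group in 20. It is Cngb1, a channel subunit gene, in the TH- libraries. Section 2 stood at 116 CPM there, from 20 UMIs, while the other 4 sections lay between 296 and 365 CPM. The TH+ library of the same section was also the lowest of its group for Cngb1, at 263 CPM.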

How the results depend on the processing

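For the layers, all 9 genes remained higher in the ONL than in the BCL, in the ONL than in the GCL and in the BCL than in the GCL under every alternative run, with log2 fold changes of 1.67 to 3.25, 3.13 to 4.17 and 0.66 to 1.55. The lowest of these, 0.66, is that of Cnga1 for BCL against GCL without section 3, at an adjusted p of 0.0447 by edgeR. Scaling by library totals alone moved the median of all genes to -0.253, -0.164 and 0.150, and the median of the 9 genes to 2.04, 3.38 and 1.46. TH+ against TH- kept its direction for all 9 genes (0.33 to 0.95) but not its calls. DESeq2 called 0 and the section block 8, against 3, and leaving out each section gave 0 to 6. Cnga1, not called, fell to 0.38 without section 2, and Pde6b, not called, to 0.33 without section 5. The losses without section 3, 4 or 5 also leave fewer libraries, and the cause was not tested. The section block changed no call of the layers.

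The ratio of Pde6g to Pde6a plus Pde6b kept its sign. Without each section it ran from -0.363 to -0.265 against the BCL and from -0.420 to -0.249 against the GCL, where 3 against 3 sections allow no exact permutation p under 0.1. The other ratios, none of which passed either, also kept their sign without each section. Pde6a to Pde6b ran from -0.194 to -0.082 against the BCL and from -0.310 to -0.098 against the GCL, and Cnga1 to Cngb1 from 0.617 to 0.892 and from 0.175 to 0.354. Paired by section with the block the Pde6g ratio was -0.317 and -0.357, where 4 pairs allow no exact permutation p under 0.125.

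The RPKM of a gene in the ONL depends on the length. Over the coding length it was 12059.9 for Gnat1, 1473 for Pde6a, 1176 for Pde6b, 18747 for Pde6g, 415 for Cnga1, 404 for Cngb1, 10616 for Sag, 1304.5 for Grk1 and 825 for Slc24a1. Over the canonical transcript, an alternative chosen after seeing the data, it was 5439 for Gnat1, 1074 for Pde6b, 5437 for Pde6g, 311 for Cnga1, 259.6 for Cngb1, 7467 for Sag and 297 for Grk1. With TMM-scaled library sizes it was 4680.2 for Gnat1, 909 for Pde6a, 672 for Pde6b, 2369 for Pde6g, 151 for Cnga1, 193 for Cngb1 and 281 for Grk1. The depth of TH+ libraries limits the channel and kinase genes most, with 5 to 16 UMIs for Cnga1 and 8 to 31 for Grk1.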
